A study of Homo sapiens with 5 samples.

Results

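Replicated H3K27ac regions of VCaP cells that held no H3K4me1 peak numbered 7890 of 47128, or 16.7% (95% interval 16.4 to 17.1%). VCaP is an established human prostate cancer line. Peaks were mapped by chromatin immunoprecipitation with sequencing (ChIP-seq), in which fixed, sheared chromatin is pulled down with an antibody and its DNA is sequenced. H3K27ac, histone H3 acetylated at lysine 27, and H3K4me1, histone H3 with 1 methyl group at lysine 4, were each mapped in 2 libraries with an Abcam antibody, and an input library completes the series. Both marks were mapped in the same line, grown in DMEM with fetal bovine serum, glutamine and antibiotics, and the labels name no treatment, genotype change or clone. No label says whether the 2 libraries of a mark came from separate cultures, so their spread may be technical.

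The regions were chosen by position alone. H3K27ac peaks of both libraries on chromosomes 1 to 22 and X were merged where they shared at least 1 bp, and a merged region was kept, and called replicated, where it held a peak of each library. Regions that overlapped no peak of either H3K4me1 library by 1 bp are described here. They are set against the 39238 replicated H3K27ac regions that overlapped at least 1 such peak. The lack of H3K4me1 is therefore the selection and not a finding, and width, which affects how easily a region meets a peak, is not independent of it. No test between these sets is given. Both sets are read in the same 2 libraries of each mark and are not groups of libraries. Even 2 libraries against 2, a contrast not made here, could not go below an exact permutation p of 0.333. Intervals in parentheses are exact (Clopper-Pearson) 95% intervals and cover counting error over regions, which as neighbours on a chromosome are not independent.

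H3K27ac is deposited by the acetyltransferases p300 and CBP and is found at active enhancers and active promoters. H3K4me1 is deposited largely by the MLL3 and MLL4 enzymes, covers enhancers whether active or poised, and at active promoters lies on the flanks, because the nucleosomes next to the start site carry trimethylated lysine 4 instead. A region with H3K27ac and no H3K4me1 peak can thus belong to more than one class of element, which these 2 marks cannot separate. The peak lists use genome build hg19, for which no gene annotation or sequence was used here, so regions are given by coordinate in hg19, counted from 1, without gene or sequence.

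The 4 lists held 54763 and 64845 H3K27ac peaks and 118231 and 125320 H3K4me1 peaks in replicates 1 and 2. They carry no height, enrichment or significance, and the read depth behind them is unknown, so that a missing peak means no call at the authors' threshold and not absence of the mark. Each list had its own smallest width, between 172 and 232 bp.

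H3K27ac regions without H3K4me1 made up 16.7% of the regions but 12.6% of their length, 9.42 of the 74.9 Mb that replicated regions covered. Of the H3K27ac peaks of replicate 1, 14.6% lay in them, and of replicate 2, 13.1%. With H3K4me1 replicate 1 taken alone 12317 regions (26.1%) had no peak, and with replicate 2 alone 9006 (19.1%). The lists thus differed, and the regions studied here are those that both leave out. Among the other 39238 regions, 33695 held a peak of both H3K4me1 libraries, 4427 a peak of replicate 2 alone and 1116 a peak of replicate 1 alone. When only the widest peaks of each list were used, as many as the shortest list holds, the share without H3K4me1 was 34.8% of 43800 regions. The shortest list is that of H3K27ac replicate 1, which stayed whole, while both H3K4me1 lists were cut to 54763 peaks. A higher share follows in part from that cut.

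Regions without a peak in one H3K4me1 library lacked one in the other more often than regions with a peak did. Regions lacking both are the 7890 of the selection. These shares therefore describe how far the 2 lists agree and are no independent check of the set. Of the 12317 regions without a replicate 1 peak, 64.1% (63.2 to 64.9%) also lacked a replicate 2 peak, against 3.21% (3.02 to 3.40%) of the 34811 regions with one. In the reverse direction, 87.6% (86.9 to 88.3%) of the 9006 regions without a replicate 2 peak lacked a replicate 1 peak, against 11.6% (11.3 to 11.9%) of the other 38122. Each reading rests on 1 library, so no replicate spread stands behind it. Merged H3K27ac regions found in 1 H3K27ac library only, which are outside the selection, lacked H3K4me1 in 20.0% of 15681 cases (19.4 to 20.6%).

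Distances to the nearest H3K4me1 peak had a near and a far crest when binned on a log scale. The gap, counted as the bases between the ends of a region and of the nearest peak of either library, had a median of 2523 bp, a lower quartile of 343 bp and an upper quartile of 12.9 kb. On a log scale the most filled near bin, 177 to 315 bp, held 755 regions and the most filled far bin, 9999 to 17781 bp, held 838. Between them the bin from 562 to 998 bp held 498. Bins of equal log width span more bp at larger gaps. Both crests are thus ones of log distance and not of regions per bp. Per bp, neither bin was fuller than those next to the peak, where 9 regions lay at 0 bp and 17 at 1 to 2 bp. With each H3K4me1 library alone the far crest was in the same bin, with 1034 regions for replicate 1 and 884 for replicate 2, and the near crest was in the next bin, 316 to 561 bp, with 563 and 679. The bin from 562 to 998 bp then held 441 and 499 regions. Since regions were selected on both libraries, this recurrence is part of one selection.

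**Figure D1:**
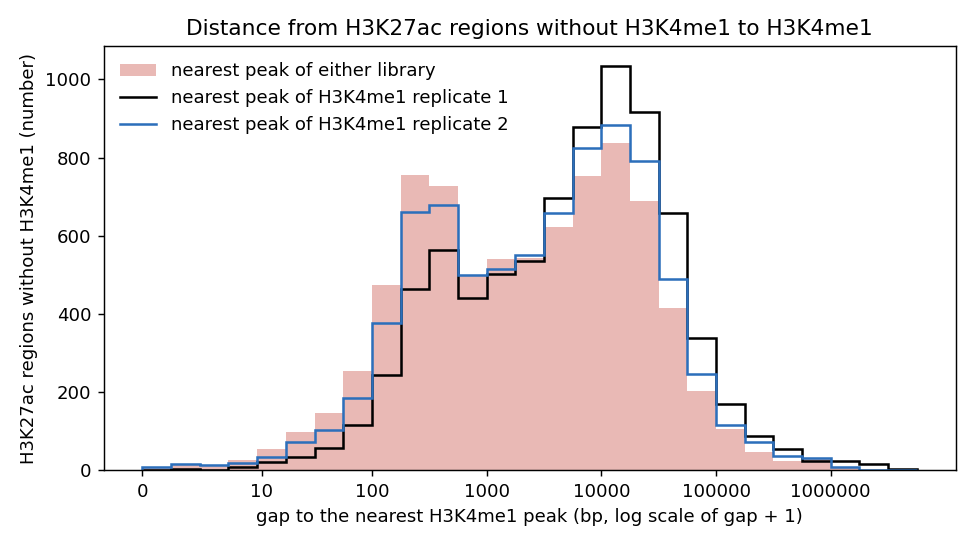
Number of replicated H3K27ac regions without H3K4me1 (vertical axis) by the gap in bp to the nearest H3K4me1 peak (horizontal log axis of gap + 1), for either library (filled) and each library alone (lines). Counts in bins of equal log width crest below 1 kb and again near 10 kb, with 755 and 838 regions in the most filled bins for either library.

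By fixed distances, 3074 regions (39.0%, 37.9 to 40.05%) lay within 1 kb of an H3K4me1 peak, 2461 (31.2%) at more than 1 and up to 10 kb, and 2355 (29.8%, 28.8 to 30.9%) beyond 10 kb. These limits were set after the distribution had been seen. Within 500 bp lay 2462 regions, or 31.2%. In contrast 479 regions (6.07%) were more than 50 kb and 210 (2.66%) more than 100 kb from any H3K4me1 peak. The median gap was 6742 bp to replicate 1 peaks and 3897 bp to replicate 2 peaks. The median depended on how regions were chosen: it was 1277 bp without H3K27ac replicate 1, 4523 bp without H3K4me1 replicate 2, 457 bp where only an overlap of at least 50% of the shorter interval disqualified a region and 7658 bp where a peak within 500 bp did so too. It was 11.6 kb with equal numbers of widest peaks, where the H3K4me1 lists were cut.

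Regions lay close to the border of the rule on both sides of it. Of the regions without H3K4me1, 79 lay at most 10 bp from a peak and 9 of these touched one. On the other side, 56 regions counted as carrying H3K4me1 by at most 10 bp of overlap. The 635 regions within 100 bp of a peak had a median width of 1316 bp, and the 956 regions with at most 100 bp inside a peak one of 1418 bp. Their median gaps to the next H3K27ac region were 16222 and 12725 bp.

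H3K4me1 stood on a single side more often than on both. No comparison with sides that meet H3K4me1 independently was made, so a one-sided arrangement is not shown. Within 2 kb of their ends, 713 of the 7890 regions (9.04%, 8.41 to 9.69%) had H3K4me1 on both sides, 3017 (38.2%, 37.2 to 39.3%) on 1 side and 4160 (52.7%, 51.6 to 53.8%) on neither. With replicate 1 peaks alone the shares were 4.11, 28.3 and 67.6%, and with replicate 2 peaks 6.98, 34.8 and 58.2%. Of the regions with H3K4me1 on 1 side, 1512 of 3017 had it on the side of lower coordinate, or 50.1% (48.3 to 51.9%). Sides are those of the genome coordinate, so a preference relative to gene direction could not be seen. For the regions that carry H3K4me1 the shares were 67.5% on both sides, 28.5% on 1 and 3.92% on neither, where a peak that starts inside the region and reaches past its end counts for that side.

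Just outside the regions, H3K4me1 was most frequent 500 bp from the end. At that distance 6.50% of positions lay in a replicate 1 peak and 11.3% in a replicate 2 peak. The rule keeps peaks out of the region, so coverage at its end was 0.00634 and 0.0570% and could only rise from there. The place of the crest is thus tied to the selection and is not shown to be a preferred distance. At 2 kb the values were 3.52 and 5.48%, and at 5 kb 2.90 and 4.57%. Around regions that carry H3K4me1 coverage was 22.4 and 33.7% at 500 bp and 6.89 and 10.0% at 5 kb. At 50 kb, well beyond the region, it was still 3.14 and 4.47% around regions without H3K4me1 against 4.77 and 7.15% around those with it. Both H3K4me1 libraries gave the lower value around regions without the mark at each of these distances.

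**Figure D2:**
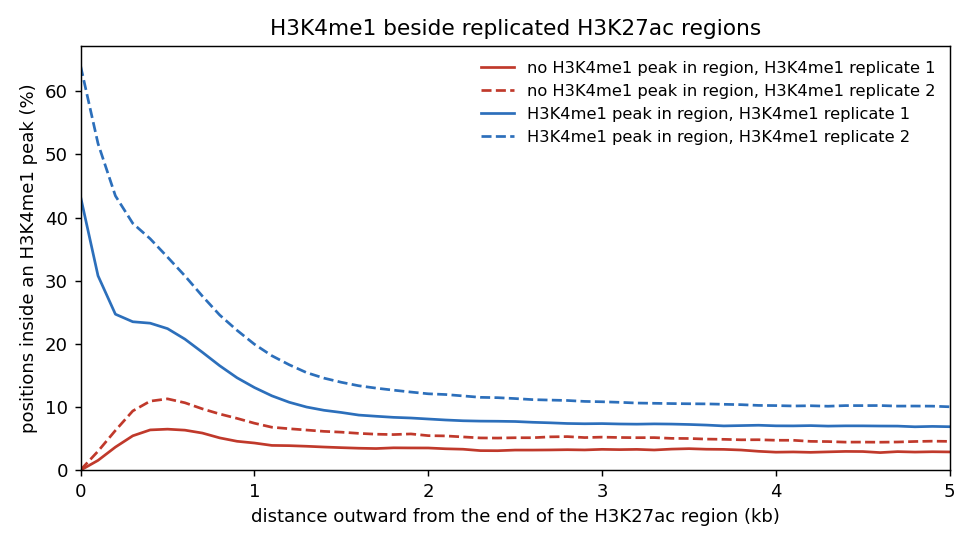
Percentage of positions inside an H3K4me1 peak (vertical axis) at distances of 0 to 5 kb outward from the ends of replicated H3K27ac regions, averaged over both sides. Regions without H3K4me1 (red) start near 0, as the rule requires, crest at 500 bp with 6.50 and 11.3% in H3K4me1 replicates 1 (solid) and 2 (dashed), and stay below regions with H3K4me1 (blue).

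Regions without H3K4me1 were narrower than those with it. Their widths ran from 224 to 7383 bp with a median of 945 bp and quartiles of 544 and 1622 bp, against a median of 1288 bp and quartiles of 649 and 2229 bp for regions with H3K4me1, a ratio of medians of 0.734. In H3K27ac replicate 1 the widest peak of a region had a median of 876 bp without and 1186.5 bp with H3K4me1, a ratio of 0.738. In replicate 2 the medians were 805 and 923.5 bp, a ratio of 0.872. Both libraries thus gave narrower peaks in regions without H3K4me1, by unequal amounts, and the middle 50% of widths of both sets overlapped widely in each library. The median width was lower without H3K4me1 on each of the 23 chromosomes, with ratios from 0.414 to 0.889. The lowest ratio was that of chromosome 21, where only 39 regions lacked H3K4me1, and the next was 0.565 on chromosome 11 with 244.

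**Figure D3:**
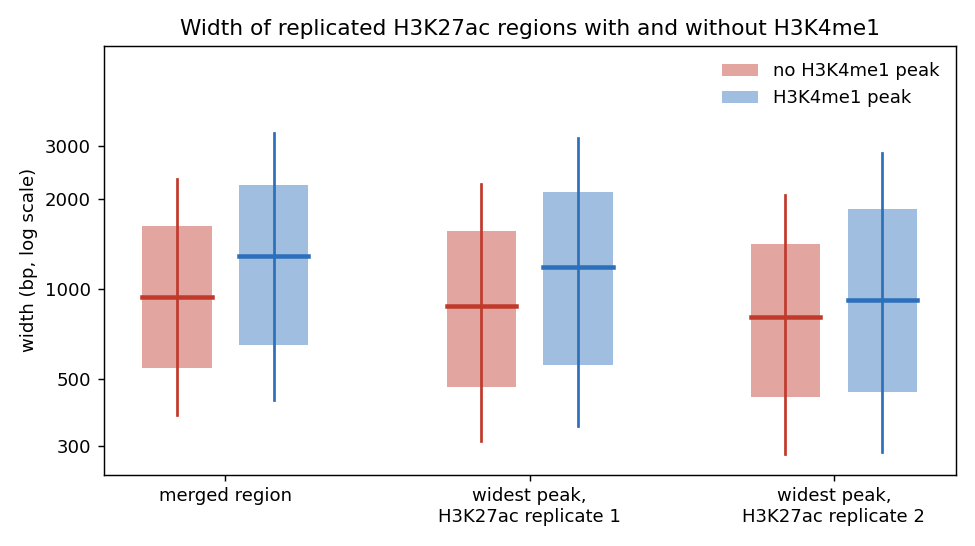
Width in bp (vertical log axis) of replicated H3K27ac regions, and of their widest peak in each H3K27ac library, for 7890 regions without (red) and 39238 with an H3K4me1 peak (blue). Thick lines are medians, boxes span the 25th to 75th and thin lines the 10th to 90th percentiles; medians are lower without H3K4me1 in all 3 measures while the boxes overlap.

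Wide regions were scarce in the set. Over 5 width classes of nearly equal size, the share without H3K4me1 was 21.3% of the narrowest regions (223 to 548 bp), 20.3, 19.0 and 15.2% of the next classes, and 7.90% (7.36 to 8.46%) of the widest (2377 to 30474 bp). The order from narrow to wide was the same with either H3K4me1 library alone, from 32.8 to 14.5% for replicate 1 and from 24.0 to 9.68% for replicate 2. Above 5000 bp, 22 of 1150 regions (1.91%, 1.20 to 2.88%) had no H3K4me1. A wide region offers more bases for an H3K4me1 peak to meet, and the part of this gradient that follows from width alone was not tested.

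Width varied with the distance to H3K4me1. The 3074 regions within 1 kb of a peak had a median width of 1059 bp (991.5 bp in H3K27ac replicate 1 and 891.5 bp in replicate 2), the 2461 at 1 to 10 kb 880 bp (801 and 761 bp), and the 2355 beyond 10 kb 915 bp (842 and 759 bp). The near regions were thus the widest of these classes in both libraries. Regions with H3K4me1 on both sides within 2 kb had a median of 1043 bp, those with it on 1 side 989 bp and those with it on neither 907.5 bp. In the widest of the 5 classes the median gap to H3K4me1 was 690 bp, against 2469 to 3661 bp in the 3 narrowest.

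In most of these regions each H3K27ac library had a single peak. In 7230 of 7890 regions (91.6%, 91.0 to 92.2%) each placed exactly 1, compared with 80.2% (79.8 to 80.6%) of regions with H3K4me1. Replicate 2 split the region into 2 or more peaks in 7.54% of regions without and 18.1% of regions with H3K4me1, and replicate 1 in 0.989 and 2.30%. A wider region can hold more peaks, and these counts were not split by width. The median share of covered bases that both libraries covered was 84.6% without and 80.3% with H3K4me1. It was higher without H3K4me1 in each of the 5 width classes, from 75.5 against 69.0% in the narrowest to 91.0 against 89.2% in the widest. Across regions, which share their libraries and are not replicates, Spearman's rho between the widths of the widest peak in both libraries was 0.917 without and 0.895 with H3K4me1.

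Regions without H3K4me1 stood farther from other H3K27ac. The median gap to the nearest replicated H3K27ac region of either kind was 10.3 kb, against 5.49 kb for regions with H3K4me1, a ratio of 1.88. The distances themselves depended on the lists. Without H3K27ac replicate 1, where every replicate 2 peak is a region of its own, the medians were 1243.5 and 569 bp, a ratio of 2.19. Without H3K27ac replicate 2 they were 6964.5 and 3491 bp. Measured to the nearest H3K27ac peak of a single list outside the region, the medians were 8.70 and 4.17 kb in replicate 1 and 7.52 and 3.73 kb in replicate 2. More than 12500 bp from the next region, the distance commonly used to join H3K27ac regions into domains, lay 3663 of the 7890 regions (46.4%, 45.3 to 47.5%) and 33.2% (32.8 to 33.7%) of regions with H3K4me1. Close neighbours were about as frequent in both sets, with another replicated region within 1 kb for 28.3 and 29.4%. The sets parted at longer range, where 14.9 and 8.54% had none within 50 kb.

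The wider spacing was present in each width class. The median gap to the next H3K27ac region was 4.95 kb without and 3.49 kb with H3K4me1 in the narrowest class, 11.2 and 5.47 kb in the middle class and 15.7 and 6.40 kb in the widest. Spacing depended on the distance to H3K4me1, with medians of 8.03 kb for regions within 1 kb of an H3K4me1 peak, 5.64 kb for those at 1 to 10 kb and 21.5 kb for those beyond 10 kb. Of the far regions, 67.1% stood more than 12500 bp from the next H3K27ac region. Regions at 1 to 10 kb from H3K4me1 were therefore spaced much like those that carry the mark (5.49 kb), and the far regions were not.

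**Figure D4:**
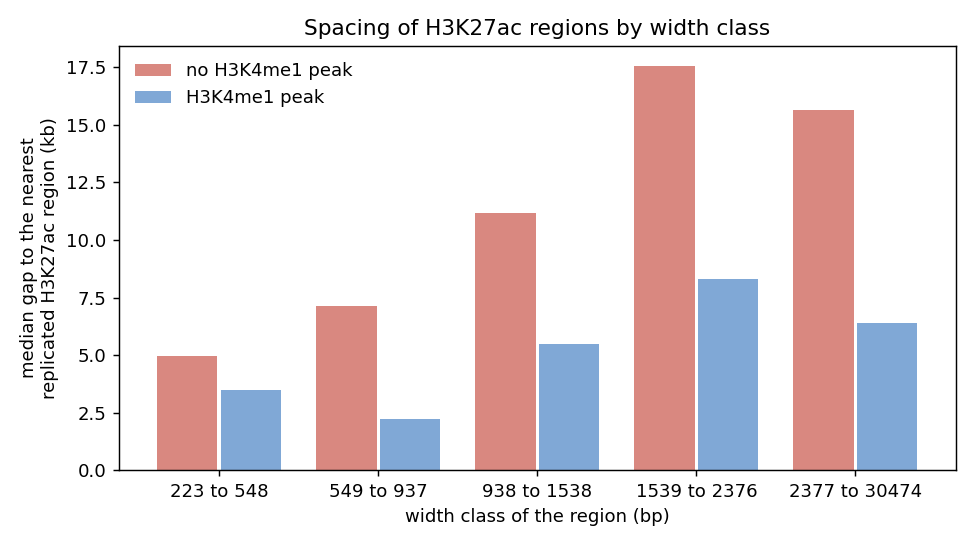
Median gap in kb to the nearest replicated H3K27ac region (vertical axis) for regions without (red) and with H3K4me1 (blue) in 5 width classes (horizontal axis, bp). The red bar is the taller in each class, from 4.95 against 3.49 kb in the narrowest to 15.7 against 6.40 kb in the widest.

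Joining regions at most 12500 bp apart gave 27436 H3K27ac domains. Of these, 4188 consisted of regions without H3K4me1 alone and held 4804 of the 7890 regions (60.9%, 59.8 to 62.0%). Most were single regions (3663), and 525 joined 2 or more. The other 3086 regions (39.1%) lay in 2522 domains beside at least 1 region that carries H3K4me1. Single regions made up much of the 60.9%: 46.4% of regions without H3K4me1 were a domain alone, against 33.2% of those with it. The share of regions with H3K4me1 in domains of their own kind was not counted, so the 60.9% has no counterpart here.

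Neighbours along the chromosome resembled each other. The next replicated H3K27ac region was read on each side of every region. Beside regions without H3K4me1, 33.2% of 15760 such neighbours also lacked H3K4me1 (32.5 to 33.9%). Beside regions with H3K4me1 the share was 13.4% (13.2 to 13.7%), and over all regions 16.7%. Neighbours of the same kind were counted from both ends, so these intervals are too narrow even for counting error. With H3K4me1 replicate 1 alone the values were 40.2 and 21.1%, and with replicate 2 alone 35.2 and 15.3%. Taken without chromosomes X, 16, 19 and 6, where such regions were most frequent, they were 27.5 and 12.2%.

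Unbroken runs of consecutive H3K27ac regions without H3K4me1 numbered 5275, and 3806 of them were 1 region long. In 112 runs 5 or more followed each other, with 855 regions (10.8%), and in 19 runs 10 or more, with 308 regions. Of these 19, 8 lay on chromosome X, 4 on chromosome 6, 2 each on chromosomes 5 and 16, and 1 each on chromosomes 1, 13 and 19.

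The longest run held 36 regions on chromosome X from 100074545 to 105286189, a span of 5212 kb in which H3K27ac replicates 1 and 2 had 39 and 45 peaks and H3K4me1 replicates 1 and 2 had 2 each. Another on chromosome X, from 48768122 to 51546675, held 27 regions, with 29 and 33 H3K27ac peaks against 3 and 4 H3K4me1 peaks. On chromosome 6 the run from 11762779 to 15402013 held 23 regions, with 27 and 35 H3K27ac and 14 and 16 H3K4me1 peaks, and the run from 7541560 to 10613238 held 22, with 25 and 30 H3K27ac and 8 and 4 H3K4me1 peaks. The fifth, on chromosome X from 53122698 to 54666692, held 19 regions, with 20 H3K27ac peaks in each library and 4 and 8 H3K4me1 peaks. Because the stretches were picked as runs of regions without H3K4me1, their low H3K4me1 counts follow in part from that choice and are given as a description.

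Chromosome X had the highest share of H3K27ac regions without H3K4me1, 46.1% (43.2 to 48.9%, 549 of 1192), followed by chromosome 16 with 37.5% (34.9 to 40.1%, 512 of 1366) and chromosome 19 with 24.9% (23.0 to 26.9%, 487 of 1955). The lowest shares were 5.15% on chromosome 21 (3.68 to 6.97%, 39 of 758), 9.26% on chromosome 20 (7.78 to 10.9%, 127 of 1372) and 9.97% on chromosome 11 (8.81 to 11.2%, 244 of 2447). The median chromosome had 15.7%, and 15 of 23 lay within 5 percentage points of the 16.7% of all regions. With H3K4me1 replicate 1 alone the shares of chromosomes X, 16 and 21 were 57.4, 47.3 and 10.7%, and with replicate 2 alone 49.4, 41.2 and 5.67%. The distance between chromosomes X and 21 exceeded that between the libraries.

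**Figure D5:**
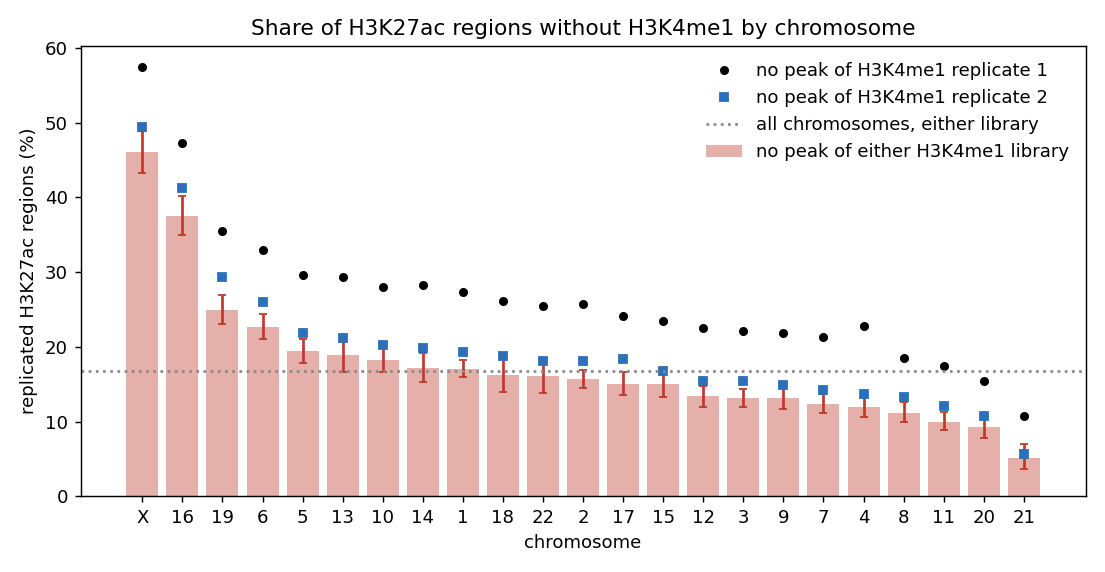
Percentage of replicated H3K27ac regions without an H3K4me1 peak (vertical axis) on each chromosome, in descending order. Bars count both H3K4me1 libraries, with exact 95% intervals, dots and squares each library alone, and the dotted line marks 16.7%; chromosomes X and 16 stand highest and 21 lowest in all 3 counts.

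Peak density differed between these chromosomes in both marks and by different amounts. Chromosome X had 10.9 and 12.48 H3K4me1 peaks per Mb in replicates 1 and 2, against chromosome medians of 43.3 and 45.6, and 8.89 and 10.5 H3K27ac peaks per Mb. On chromosome 16 H3K4me1 had 24.2 and 26.7 peaks per Mb and H3K27ac 17.1 and 20.6. On chromosome 21 H3K4me1 had 56.0 and 54.3 and H3K27ac 22.4 and 26.8 peaks per Mb. The share did not follow H3K4me1 density taken alone on every chromosome. Chromosome 19, with the third highest share, had 49.0 and 50.7 H3K4me1 peaks per Mb, above the chromosome medians, and 35.9 and 43.9 H3K27ac peaks per Mb. Chromosome 4, with a share of 11.9%, had 34.2 and 37.4 H3K4me1 and 13.8 and 16.3 H3K27ac peaks per Mb. How the share relates to both densities together was not tested.

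Chromosome X exceeded the median chromosome by more in regions far from H3K4me1 than in near ones. Beyond 10 kb of any H3K4me1 peak lay 25.4% of all replicated H3K27ac regions of chromosome X, 12.52% of those of chromosome 16 and 1.06% of those of chromosome 21, with a chromosome median of 3.87%. Within 1 kb of a peak, without overlapping it, lay 11.1, 11.3 and 1.85%, with a median of 6.39%. The median gap was 14.1 kb on chromosome X and 1179 to 4901 bp on the 22 autosomes. Chromosomes X, 16, 19 and 6 together held 26.6% of the regions without H3K4me1 and 14.7% of all replicated H3K27ac regions, and over the other chromosomes the share was 14.4%.

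The surroundings held fewer H3K4me1 peaks and slightly fewer H3K27ac regions. Within 500 kb on each side, leaving out what overlaps the region itself, a region without H3K4me1 had a median of 59 merged H3K4me1 peaks (quartiles 41 and 76) and one with H3K4me1 70 (55 and 86). The medians for replicated H3K27ac regions were 23 and 26. By distance, the regions within 1 kb of an H3K4me1 peak had 63 such peaks around them, those at 1 to 10 kb 63 and those beyond 10 kb 48. The far regions thus had the sparsest surroundings. Since the count of peaks nearby is tied to the rule, it describes where the regions lie and is not independent of their choice.

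Over 5 classes of this local H3K4me1 density the share without H3K4me1 went from 28.3% (27.4 to 29.2%) in the sparsest, with at most 48 peaks, to 9.52% (8.93 to 10.1%) in the densest, with 89 to 162. The part beyond 10 kb went from 12.51 to 1.39% of all regions and the part within 1 kb from 8.96 to 4.44%. Regions without H3K4me1 were narrower than the rest in each density class, with width ratios from 0.887 in the sparsest to 0.613 in the densest. They were also farther from the next H3K27ac region in each, with spacing ratios from 1.34 to 2.03.

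The 10 widest regions without H3K4me1 measured 5474 to 7383 bp, and 282 regions with H3K4me1 were wider than the widest of them. That region lay on chromosome 6 from 10408010 to 10415392, 7383 bp wide, covered by 1 peak of 7383 bp in H3K27ac replicate 1 and by 2 peaks in replicate 2, the wider of 5895 bp. Its nearest H3K4me1 peak was 138 kb away in replicate 1 and 157 kb in replicate 2, while the next replicated H3K27ac region was 252 bp away. It fell inside the run on chromosome 6 that starts at 7541560.

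Of the others, those on chromosome 8 (8745141 to 8751860, 6720 bp), chromosome 1 (28831511 to 28837799, 6289 bp), chromosome X (93743250 to 93748915, 5666 bp) and chromosome X (40943001 to 40948474, 5474 bp) had an H3K4me1 peak 257, 420, 250 and 503 bp away. These 4 were wide H3K27ac regions with H3K4me1 just beside them. Those on chromosome 5 (90674219 to 90680796, 6578 bp), chromosome 12 (92533369 to 92539629, 6261 bp) and chromosome 2 (193055979 to 193062191, 6213 bp) had their nearest H3K4me1 peak at 3280, 2826 and 3622 bp. On the other side of these 3 regions the next H3K4me1 peak was 33.2, 204 and 53.1 kb away.

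A pair of them lay about 1 Mb apart on chromosome 15, from 21985830 to 21991983 (6154 bp) and from 20979557 to 20985514 (5958 bp), with H3K4me1 9570 and 8918 bp away. H3K27ac replicate 1 covered each with 1 peak, whereas replicate 2 broke them into 3 peaks, the widest of 3755 bp, and 4 peaks, the widest of 2126 bp. The libraries thus differed more here than in the typical region of the set, where each placed 1 peak.

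The 5 regions farthest from H3K4me1 were all on chromosome X. They were those from 97108935 to 97109290 (356 bp, 1312 kb away), from 80065568 to 80066189 (622 bp, 1179 kb), from 80063056 to 80064870 (1815 bp, 1177 kb), from 101853988 to 101855436 (1449 bp, 1099 kb) and from 115370889 to 115371648 (760 bp, 1067 kb). The region at 97108935 was also 1168 kb from the next H3K27ac region and had peaks of 266 and 211 bp, near the smallest widths of the lists, 221 and 172 bp. In contrast the regions at 80063056 and 80065568 were 697 bp apart, and the wider of them had peaks of 1792 and 1153 bp.

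Among regions within 100 bp of an H3K4me1 peak, the widest lay on chromosome 9 from 109622316 to 109627423 (5108 bp), chromosome 6 from 21593557 to 21598488 (4932 bp) and chromosome 1 from 46150040 to 46154952 (4913 bp), with gaps of 49, 49 and 84 bp. In each of the 3 the adjoining peak came from H3K4me1 replicate 2, and the nearest replicate 1 peak was 3432, 436 and 2732 bp away. Each of the 3 was 1 peak in both H3K27ac libraries.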

How the data were processed

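Per the submitters' processing notes, bcl2fastq 2.17, Trimmomatic 0.33, Bowtie 1.1.2 and MACS2 2.1.0 were used with build hg19; the role of each and the threshold and control for peaks were not given in the sources used here. For each immunoprecipitated library the authors deposited a peak list with 4 columns (chromosome, start, end, name) and positions in bp. The input library is not analysed here.

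Intervals were merged and compared in Python 3.11.15 with numpy 2.4.6, pandas 2.3.3 and scipy 1.17.1, and the interval functions were tested on simulated data. Starts counted from 0 in the lists were raised by 1 for printing. Gaps run from end to end, with 0 for adjoining intervals. Named regions are the 10 widest, the 5 farthest from H3K4me1, the 5 longest runs and the 3 widest within 100 bp of H3K4me1, and the 3 chromosomes of highest and of lowest share. Planned work on gene starts, base composition and marker genes was not run, since the gene table at hand is of another build. The regions, classes and rules were chosen with earlier results of these data known. The limits of 1 and 10 kb on gaps and the 500 kb neighbourhood were chosen after the data were seen.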

Additional observations from a re-analysis of the deposited data

Results flagged for a closer look

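Chromosome Y was outside the selection. The lists held 185 replicated H3K27ac regions there, of which 68 (36.8%, 29.8 to 44.1%) had no H3K4me1 peak of either library. The count is listed because these regions lie outside the comparisons, and no test was run on it.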

How the results depend on the processing

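Over 11 results and 69 alternatives, 40 moved by no more than a set SD and 29 moved further. For most results this was the SD over the 4 pairings of 1 H3K27ac with 1 H3K4me1 library. For the readings of one H3K4me1 library in the other, and for the width ratios of single H3K27ac libraries, it was the SD of the 2 reported values. The width ratio stayed below 1 in 10 of 10 alternatives and the spacing ratio above 1 in 10 of 10. An exclusion only at an overlap of 50% of the shorter interval gave a share of 23.5%, a width ratio of 0.907, a median gap of 457 bp, 38.4% of neighbours without H3K4me1 and 37.6% with no H3K4me1 within 2 kb on either side. That setting keeps regions with a smaller overlap, whose gap counts as 0. Exclusion also by a peak within 500 bp gave a share of 11.5%, a gap of 7658 bp and 76.6% with neither side, as it must raise both. Equal numbers of widest peaks (54763 per list) gave 34.8%, 11569 bp, 48.8 and 78.4% for share, gap, neighbours and neither side. That setting took most peaks from the H3K4me1 lists, so higher values follow in part from it. Leaving out a library gave shares of 17.7 to 26.1%, width ratios of 0.736 to 0.933, gaps of 1277 to 4523 bp, spacing ratios of 1.77 to 2.19, 34.3 to 40.2% of neighbours, 43.8 to 60.6% with neither side, and 43.7 to 46.7 points between chromosomes X and 21 (40.9 with both H3K4me1 libraries). One minimum width and one joining distance, both 232 bp, in every list gave a share of 16.9%, a width ratio of 0.744 and a gap of 3171 bp. Leaving out the 4 chromosomes of highest share, chosen after seeing the data, gave 27.5% of neighbours. The causes were not tested. A replicate block on same-numbered libraries gave a mean share of 25.2%, and crossed numbers 25.4%. Each of these shares set the peaks of 1 H3K27ac list against 1 H3K4me1 list. They are therefore not comparable with the 16.7% from replicated regions and both H3K4me1 lists. Deviations of same-numbered libraries had a correlation of -0.0527 in 22951 windows of 100 kb, and the labels do not say that the numbers pair them. Alternatives on gene starts and base composition were not run. Read depth is unknown, so its effect on the shares could not be measured.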

Other observations

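A run of 13 H3K27ac regions without H3K4me1 on chromosome 1, from 228746165 to 228784396, was the densest of the 19 runs of 10 or more, with 13 regions in 38.2 kb. It is no part of the naming rule and was picked after its values were seen. The starts of the regions followed each other at regular steps. Of 12 steps, 9 were between 2200 and 2253 bp with a median of 2234 bp, and the other 3 measured 4482, 4474 and 6745 bp, which is 2.01, 2.00 and 3.02 times that median. The regions were narrow, with a median of 347 bp, and 12 of the 13 were between 270 and 637 bp wide, while the last measured 2466 bp. H3K27ac replicate 1 had 13 peaks in the stretch, with 9 of 12 steps between starts from 2100 to 2300 bp. Replicate 2 had 20 peaks, with 14 of 19 such steps, so the spacing was present in each list. H3K4me1 replicates 1 and 2 had 1 and 2 peaks in it.

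The densest run of 5 or more lay on chromosome 19 from 48406914 to 48421881, with 7 regions of a median width of 393 bp in 14.97 kb and 0 H3K4me1 peaks in both libraries. A run of 15 on chromosome 13, from 72195782 to 73650215, also had 0 H3K4me1 peaks in both libraries, against 16 and 20 H3K27ac peaks. Its regions were between 172 and 914 kb from the nearest H3K4me1 peak. Both runs were picked after their values were seen.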
